A study of Mus musculus with 2 samples.

Results

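The immediate early genes and their stress-response relatives were examined in 2 preparations of mouse Sertoli cells, which line the tubules of the testis and nurse the germ cells. Members were all genes on the array whose symbols belong to the families Fos, Jun, Egr, Klf, Atf, Ier, Dusp, Myc, Nr4a, Gadd45, Zfp36, Maf with a letter, or Cebp. They came to 78 of the 11142 genes and 112 of the 15208 probes on the array. A symbol is a loose guide to function. Dusp, Gadd45, Zfp36 and Ier genes encode phosphatases, signalling adaptors, RNA-binding proteins and other regulators rather than classical DNA-binding factors, and several Klf and Atf genes are not induced as immediate early genes. The symbols of 5 genes begin like a family without belonging to it (Atf7ip, Mycbp, Mycbp2, Zfp367 and Zfp369). These 5 were kept in the counts, and values without them are given.

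The busulphan preparation came from male Swiss mice aged 3 months, taken 1 month after 25 mg/kg of busulphan, an alkylating agent that kills dividing germ cells. The control preparation came from male Swiss mice of the same age without the drug. Both went through the same enzymatic digestion and straining of the testis and were not cultured, and the number of mice in each is not given in the labels. Each preparation was hybridised to 1 one-colour Agilent array, so no difference has a replicate check, no test was made, and the number of arrays limits the precision.

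Immediate early genes are transcribed within minutes of a growth factor, cytokine, hormone or mechanical signal, without new protein synthesis. MAP kinases and cyclic AMP act on factors already bound at their promoters, and their messages are short-lived. Many of the products are transcription factors that carry the signal to later genes, while others, such as the Dusp phosphatases and the Zfp36 proteins, shut it down again. In Sertoli cells, FSH acting through cyclic AMP is a known inducer of Fos and Junb. Dissociating a tissue with enzymes is also a known inducer of these genes.

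Values are signals after the scanner software's background correction. Ratios are log2 of busulphan over control after each array was scaled to its 75th percentile, which was 905 on the busulphan array and 1046 on the control array. A gene was called higher or lower at a ratio of at least 2-fold. The error that the scanner software attaches to a log2 ratio had a median of 0.20 for members. It covers measurement on the array only. Where a gene had several probes, the brightest represented it. On the busulphan array 79.3% of probes were well above background, against 80.9% on the control array, and 18 probes were saturated on the busulphan array, against 106 on the control array.

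Cell type markers differed widely between the preparations. Of 20 Sertoli markers compared, 19 were higher with busulphan and 1, Gata4, was within 2-fold. The summed Sertoli level, in units of the 75th percentile, was 399.6 in the busulphan preparation, where 3 spots were saturated, and 46.9 in the control. Sums that hold saturated spots are lower limits. All 12 spermatid markers were lower, with sums of 41.9 in the busulphan preparation and 526.53 in the control, and 7 of the control spots were saturated. Of 12 spermatocyte markers, 10 were lower. Their sums were 39.5 in the busulphan preparation and 217.51 in the control, where 2 spots were saturated. The 2 preparations thus stood far apart in both Sertoli and germ cell transcripts. Of 15 macrophage markers compared, 11 were higher and 1, Aif1, was lower, and Cd163 was not well above background on either array. The summed macrophage level was 10.4 in the busulphan preparation and 61.4 in the control, where Aif1 was saturated, and without Aif1 it was 9.03 in the busulphan preparation and 1.44 in the control. Endothelial markers were higher for 2 and lower for 3 of 12, with sums of 15.2 with busulphan and 9.03 in the control, or 4.33 with busulphan and 7.53 in the control without Robo4. Peritubular myoid markers were higher for 3 of 7, with sums of 67.1 with busulphan and 49.7 in the control. Leydig markers were higher for 3 and lower for 1 of 8, with sums of 3.51 with busulphan and 1.19 in the control, or 1.25 with busulphan and 0.997 in the control without Star. Lhcgr was not well above background on either array. The parts that these cell types had in the members' values were not tested. In such mixed samples, fewer cells of a type and less RNA per cell cannot be told apart.

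Of the 78 members, 77 could be compared, and Mafa, a large Maf factor of the lens and of pancreatic beta cells, was not well above background on either array. With busulphan 40 members were higher, where 31.3% of all 9441 genes compared were higher, and 15 were lower, where 29.5% of all genes were lower. The shares of members were 51.9% and 19.5%. The median member ratio was 1.25 on the log2 scale, against 0.06 for all genes. Without the 5 name-only matches, 39 members were higher, 13 were lower and 20 lay within 2-fold, with a median of 1.46. At 4-fold, 29 members (37.7%) were higher, against 14.4% of all genes, and 10 (13%) were lower, against 17.7%. No member was 16-fold higher, against 125 of all genes (1.32%), and 3 members (Dusp13, Klf17 and Dusp4, 3.9%) were at least 16-fold lower, against 515 of all genes (5.45%). Dusp4 counts there on its brightest probe only, and its other probe gave 0.52.

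**Figure D1:**
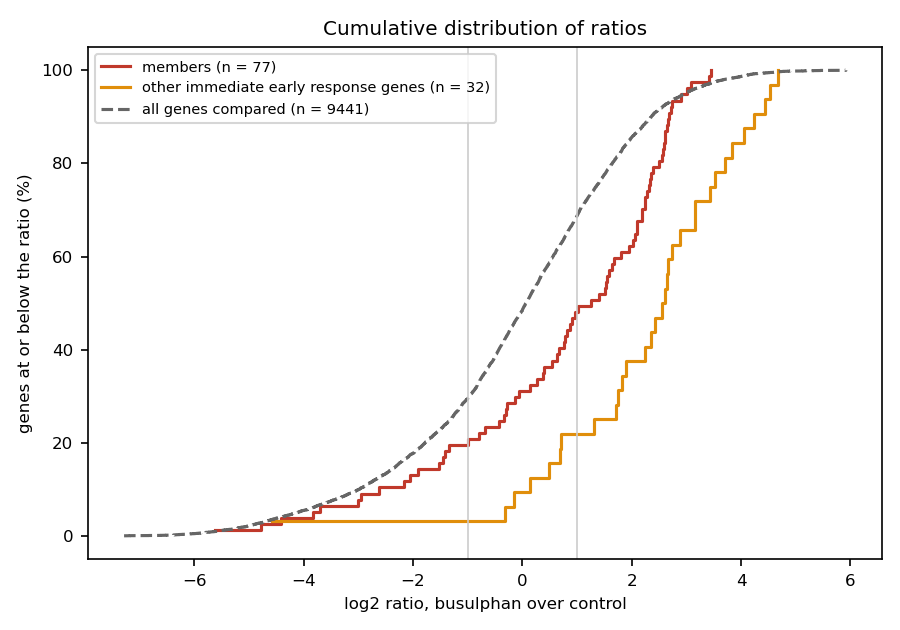
Cumulative share of genes (%, y axis) at or below each log2 ratio, busulphan over control (x axis), with vertical lines at 2-fold. Curves are for the members, for 32 other immediate early response genes and for all 9441 genes compared. The members' median lies at 1.25 and that of all genes at 0.06.

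The counts depend on the scaling. The 6 spike-in control probes of the array gave ratios 0.88 lower on the log2 scale than the 75th percentile did, which moves the median of all genes to -0.81. On that scale 30 members were higher and 23 were lower, with a median of 0.37, against 1524 genes higher and 4383 lower in all. Neither scaling was checked against a measure of RNA per cell.

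Promoter stretches of 7 members are shown because they carry elements through which immediate early genes are classically switched on, the cyclic AMP response element and the serum response factor (CArG) box, or, for Fos, the TATA box. Sequences are from RefSeq, build GRCm38.p6, written 5′ to 3′ on the gene's strand and ending at the base before the annotated start. Capitals mark the cyclic AMP response element TGACGTCA in Dusp1, Dusp8, Maff and Zfp367, the CArG box in Egr2 and Zfp36, and the element's core TGACG with the TATA box TATAAA in Fos.
Dusp1, chr17:26508473-26508622, minus strand: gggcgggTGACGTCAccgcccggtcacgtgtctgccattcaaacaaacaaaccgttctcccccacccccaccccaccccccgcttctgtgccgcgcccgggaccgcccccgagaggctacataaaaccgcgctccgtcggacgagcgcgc
Dusp8, chr7:142095285-142095399, minus strand: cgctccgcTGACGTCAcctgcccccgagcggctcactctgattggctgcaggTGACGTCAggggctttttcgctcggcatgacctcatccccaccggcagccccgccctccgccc
Maff, chr15:79347460-79347519, plus strand: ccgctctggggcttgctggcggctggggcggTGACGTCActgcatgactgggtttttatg
Zfp367, chr13:64152374-64152483, minus strand: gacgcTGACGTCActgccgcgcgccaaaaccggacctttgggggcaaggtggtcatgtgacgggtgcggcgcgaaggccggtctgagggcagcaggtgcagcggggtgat
Egr2, chr10:67537426-67537565, plus strand: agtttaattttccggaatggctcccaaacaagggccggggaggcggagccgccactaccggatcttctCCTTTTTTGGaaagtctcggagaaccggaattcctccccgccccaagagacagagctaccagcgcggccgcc
Zfp36, chr7:28379229-28379293, minus strand: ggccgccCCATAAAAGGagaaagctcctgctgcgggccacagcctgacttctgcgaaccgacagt
Fos, chr12:85473810-85473889, plus strand: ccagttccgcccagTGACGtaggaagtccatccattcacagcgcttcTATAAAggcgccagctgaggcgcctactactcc

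A promoter was found for 60 of the 78 members. The windows searched were the 250 bases before each start, on both strands except for the TATA box, which was sought on the gene's strand. TGACGTCA occurred in 4 members (6.67%), against 2.72% of 6978 compared genes with a promoter and 1.77% of all 27025. Dusp8 held the element at 2 positions. Dusp1, Dusp8 and Maff were higher with busulphan. Zfp367, a name-only match, was lower on its brightest probe but gave 0.12 on its other. The motif thus occurred in 9.38% of the 32 higher members with a promoter and in 9.09% of the 11 lower ones, which is 1 gene (Zfp367). The core TGACG, which lies inside TGACGTCA, occurred in 45% of members and 26.6% of compared genes. The E-box CACGTG, the letters bound by Myc with Max, occurred in 25% of members and 9.42% of compared genes. It was found in 31.2% of the 32 higher members with a promoter and in 9.09% of the 11 lower ones, which is 1 gene (Atf1). Atf1 was lower on its brightest probe but gave 1.06 on its probe nearest the 3′ end. The Egr motif GCGNGGGCG occurred in 33.3% of members and 9.66% of compared genes, in 28.1% of the higher and 27.3% of the lower members. The AP-1 motif TGANTCA occurred in 5% of members and 6.74% of compared genes. The CArG box was found in Egr2 and Zfp36 only, 3.33% of members, against 1.78% of compared genes. TATAAA was found in 5 members (Cebpa, Fos, Gadd45b, Gadd45g and Zfp36l1), all of them higher, or 8.33% of members and 7.39% of compared genes. Member promoters had a median GC content of 65.2%, against 58.4% for compared genes, which bears on motifs rich in G and C. A match describes letters in the window, not binding.

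**Figure D2:**
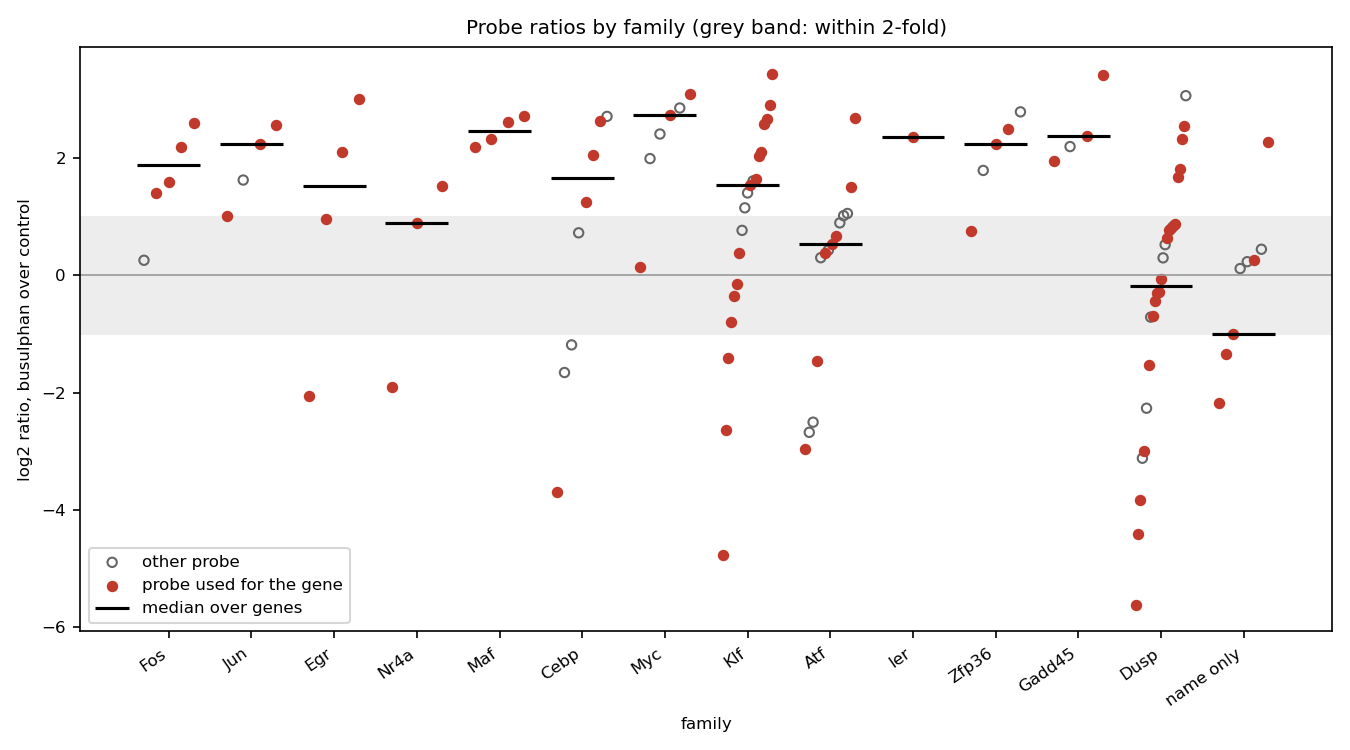
Log2 ratios, busulphan over control, of each member by family, with filled points for the probe used, open points for other probes, a line at each family's median and a grey band within 2-fold. All compared Fos, Jun and Gadd45 genes lie above 1, and the Dusp genes spread, on the probes used, from -5.62 to 2.55.

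The AP-1 subunits were all higher in the busulphan preparation. AP-1 is a dimer of a Fos and a Jun protein, or of 2 Jun proteins, and 4 of 4 Fos and 3 of 3 Jun genes passed 2-fold, with medians of 1.89 and 2.25. Fos, the prototype immediate early gene, had a signal of 20301 in the busulphan preparation and 7801 in the control, a ratio of 1.59 (3.01-fold). Its probe lies on chromosome 12 at 86817900 to 86817959 (mouse build mm9). Fosb, which is also induced by prolonged stimulation, had 11071 in the busulphan preparation and 2805.8 in the control, a ratio of 2.19. Both passed 2-fold. Fosl1 (Fra-1), a later Fos protein without the transactivation end, had 246.57 with busulphan and 107.21 in the control (2.66-fold). Fosl2 (Fra-2) had 1468.1 with busulphan and 278.35 in the control (6.10-fold), but its other, dimmer probe gave 0.26.

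Jun, the main partner of Fos, had 4593.1 in the busulphan preparation and 892.39 in the control, a ratio of 2.57 (5.95-fold), with the probe on chromosome 4 at 94715864 to 94715923 (mm9). Jund, which is expressed more steadily than the other Jun genes, had 47345 with busulphan and 11524 in the control (4.75-fold). Junb, which acts as a brake on Jun in many settings, was saturated in the busulphan preparation. It had 64644 there and 37031 in the control and was therefore at least 2.02-fold higher, and an overlapping probe below saturation gave 55002 with busulphan and 20578 in the control, a ratio of 1.63. With spike-in scaling Fos (0.71), Fosl1 (0.53) and the Junb bound (0.13) fell short of 2-fold. The Fos family median was then 1.005, at the limit within the software error, with 2 of 4 genes higher. The Jun family median was 1.36.

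The Egr and Nr4a families divided within themselves. Egr proteins are zinc finger factors, and Nr4a proteins are orphan nuclear receptors that need no ligand. Egr1 had 40290 in the busulphan preparation and 10813 in the control (4.31-fold). Egr2 had 8776.8 with busulphan and 1259.4 in the control, a ratio of 3.01 (8.05-fold), with the probe on chromosome 10 at 67004758 to 67004817 (mm9). Both passed 4-fold, Egr1 by less than the software error. Egr3 was lower, at 7.68 with busulphan and 36.8 in the control, a ratio of -2.05 with a software error of 0.35, and both signals are dim. Egr4, whose loss makes male mice infertile, had 1907 with busulphan and 1135.7 in the control, a ratio of 0.96 that just missed 2-fold.

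Nr4a1 was saturated in the busulphan preparation, at 64473, and had 39883 in the control. Its ratio was therefore at least 1.87-fold, short of the 2-fold limit as a bound. Nr4a2 was higher, at 1769.3 with busulphan and 709.4 in the control (2.88-fold), and Nr4a3 was lower, at 13.5 with busulphan and 58.7 in the control, a ratio of -1.91 with a software error of 0.26. The lower member of each family, Egr3 and Nr4a3, was dim on both arrays. With normexp background correction both moved inside 2-fold, Egr3 to -0.40 and Nr4a3 to -0.56.

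**Figure D3:**
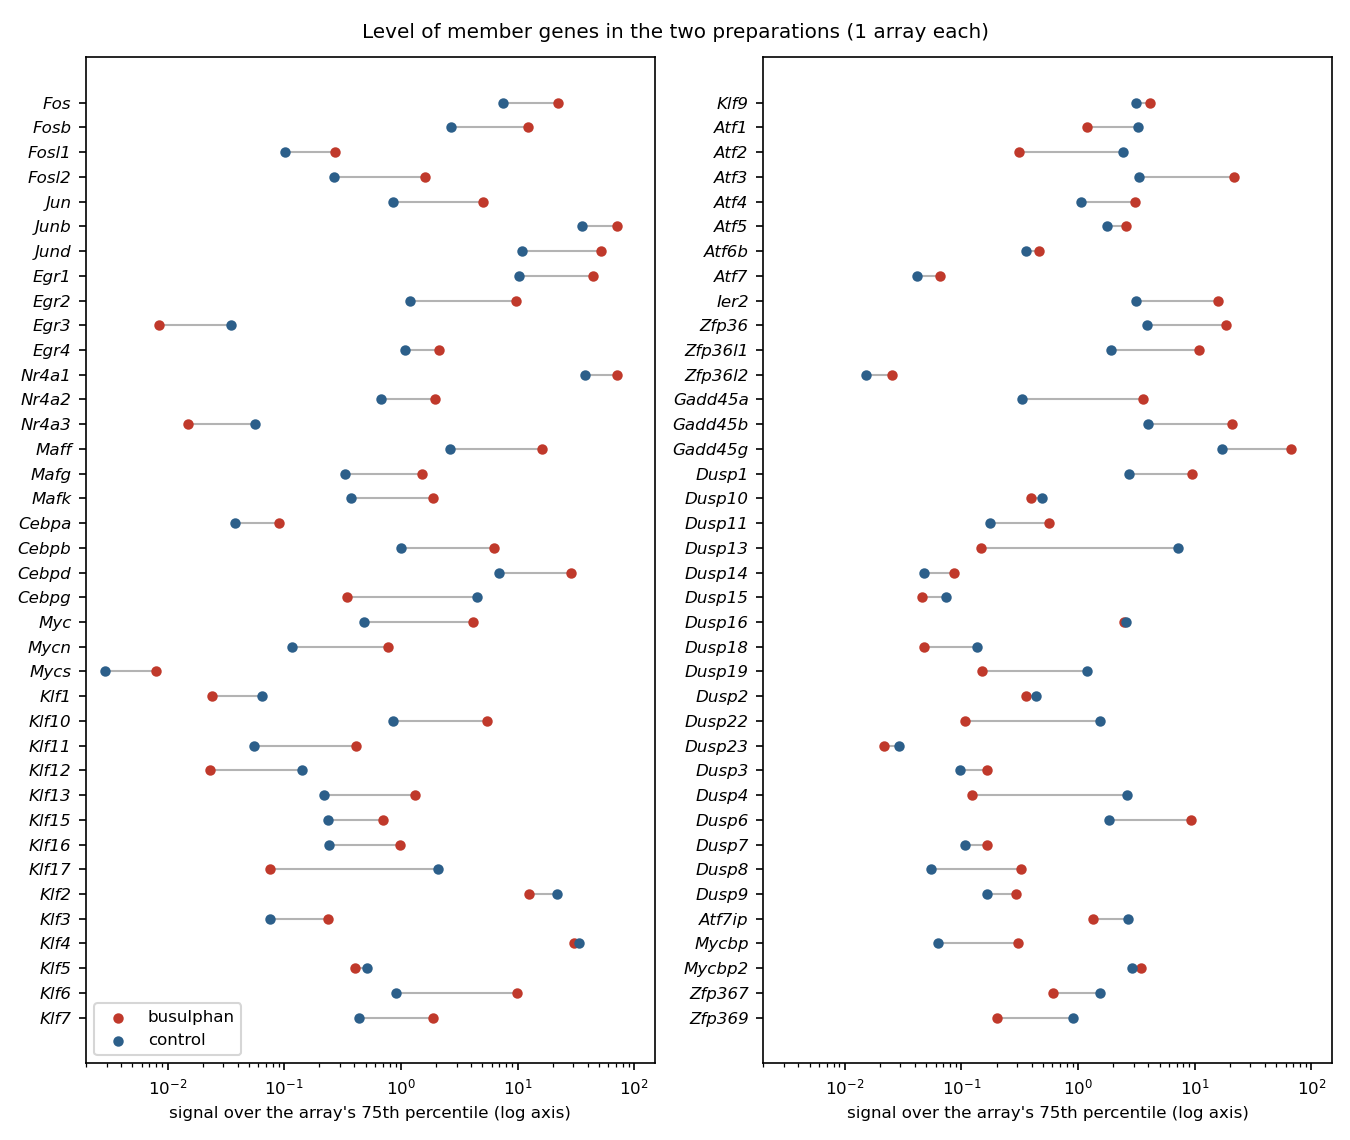
Signal of compared members over its array's 75th percentile (log axis), with a red point for busulphan and a blue one for control. The red point lies to the left by at least 2-fold for the 15 members that were lower, and widest for Dusp13.

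The Maf and Cebp genes, both of the basic leucine zipper class, were mostly higher. Maff, Mafg and Mafk are small Maf proteins, which lack a transactivation domain and pair with Nrf and Bach factors. Maff had 14591 in the busulphan preparation and 2755.4 in the control (6.12-fold). Mafg had 1365.9 with busulphan and 346.6 in the control (4.55-fold). Mafk had 1700 with busulphan and 393.03 in the control (5.00-fold). All 3 small Mafs were thus higher by similar factors.

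Of the 4 Cebp genes 3 were higher. Cebpb, a factor of the acute phase and cyclic AMP responses, had 5676.5 in the busulphan preparation and 1051 in the control (6.24-fold), and its other probe gave 2.71. Cebpd had 26024 with busulphan and 7202.9 in the control (4.18-fold). Cebpa, a factor of liver, fat and myeloid cells, had 82.2 with busulphan and 39.9 in the control (2.38-fold), but its other probe, with 18.2 with busulphan and 66.4 in the control, gave -1.66. Cebpg, a truncated partner that lacks a transactivation domain, was lower on its brightest probe, at 309.94 with busulphan and 4652.7 in the control (13.0-fold). Its other 2 probes gave -1.18 and 0.73, so its direction depends on the probe.

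Myc and Mycn, growth-promoting factors that bind E-boxes with Max, were both higher. Myc had 3754.7 in the busulphan preparation and 508.72 in the control, a ratio of 3.09 (8.53-fold), and its other 2 probes gave 2.86 and 2.41. Mycn had 707.14 with busulphan and 123.13 in the control (6.64-fold), with 1.99 from its other probe. Mycs, an intronless relative, was not well above background in the control, and its bound of 0.15 is not a call. Among 10 partners and rivals in the Max network, 6 were higher and 1 was lower, with a median of 1.13. The shares of all genes were 31.3% higher and 29.5% lower. But spike-in scaling gave 2 of the 10 higher and 3 lower, and a median of 0.25. Max itself was higher (2.13), the sugar-responsive factor Mlxipl was 17.8-fold higher, and Mxd4, a repressor that opposes Myc, was lower (-2.84).

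The Klf genes, zinc finger factors that bind GC-rich promoters, split into 8 that were higher, 3 that were lower and 4 inside the 2-fold limits, and their median was 1.55. Spike-in scaling gave 6 higher and 6 lower, and a median of 0.67. Klf6, an injury-induced member, had 8995.2 in the busulphan preparation and 955.68 in the control, a ratio of 3.44 (10.9-fold), with the probe on chromosome 13 at 5866706 to 5866765 (mm9). It was the highest ratio of all members, level with Gadd45a within the software error. Klf10, an early target of TGF-beta, had 4937.4 with busulphan and 901.75 in the control (6.33-fold). Klf11, another such target, had 374.7 with busulphan and 57.8 in the control (7.50-fold). Klf13 had 1196.4 with busulphan and 230.22 in the control (6.01-fold). The others that were higher, Klf3 (1.64), Klf7 (2.10), Klf15 (1.55) and Klf16 (2.03), had smaller ratios. Klf17, known in mouse as a germ cell zinc finger, was lower, at 68.4 with busulphan and 2161.1 in the control, a ratio of -4.77 (27.4-fold), with the probe on chromosome 4 at 117430863 to 117430922 (mm9). Klf12, a repressor, was lower too, at 20.9 with busulphan and 150 in the control (6.20-fold), and so was the erythroid factor Klf1, at 21.8 with busulphan and 67.2 in the control (2.67-fold). Klf4, which is known in Sertoli cells and in postmeiotic germ cells, had 27315 with busulphan and 34858 in the control, a ratio of -0.14. Klf2, a factor of endothelium and lymphocytes, gave -0.79 on its brightest probe and 0.77 on its other. Klf5 gave -0.34 and 1.15, and Klf9, which responds to glucocorticoids and thyroid hormone, gave 0.39 and 1.61, in the same order. For these genes the probe decides whether the 2-fold limit or the zero line is crossed.

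Of the 7 Atf genes, 2 were higher and 2 were lower, where 31.3% of all genes were higher and 29.5% were lower. The family median was 0.53 and took the other sign, -0.35, under spike-in scaling. Atf3, induced by DNA damage and many other stresses, had 19429 in the busulphan preparation and 3505.7 in the control, a ratio of 2.68 (6.40-fold). Atf4, the effector of the integrated stress response, had 2763.9 with busulphan and 1116.6 in the control (2.86-fold). Atf1 and Atf2, which are made constitutively and activated by phosphorylation, were lower on their brightest probes. Atf2 had 282.37 with busulphan and 2534.6 in the control (7.77-fold), and Atf1 had 1086 with busulphan and 3439.1 in the control (2.74-fold). Other probes of both genes gave ratios of either sign, from -2.68 to 0.90 for Atf2 and from -2.50 to 1.06 for Atf1. Atf5 (0.53), Atf6b (0.37) and Atf7 (0.68) were within 2-fold.

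The genes that damp or relay the response outside the Dusp family were mostly higher. Zfp36 (tristetraprolin), which marks AU-rich messages for decay, had 16607 in the busulphan preparation and 4035.3 in the control (4.76-fold). Its relative Zfp36l1 had 9756.2 with busulphan and 1986.2 in the control (5.68-fold). Zfp36l2 gave 0.75. Ier2, an immediate early nuclear protein, had 14417 with busulphan and 3261 in the control (5.11-fold). All 3 Gadd45 genes, stress-induced activators of a MAP kinase kinase kinase, were higher. Gadd45a, a p53 target, had 3228.9 with busulphan and 347.79 in the control (10.7-fold), close to the top of the members. Gadd45b had 18684 with busulphan and 4130.5 in the control (5.23-fold). Gadd45g, which mouse embryos need for testis formation, had 59882 with busulphan and 17848 in the control (3.88-fold).

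The Dusp phosphatases fell on both sides, with 4 higher, 5 lower and 9 within 2-fold. Among all genes 31.3% were higher and 29.5% lower. The Dusp median was -0.17, near 0 with the 75th percentile of bright probes and positive with the probe nearest the 3′ end, and -1.06 with spike-in scaling, which gave 2 higher and 9 lower. The 9 MAP kinase phosphatases, which reverse the signal that induces them, gave 3 higher and 1 lower, with a median of 0.64 (-0.25 with spike-in scaling). The 9 atypical members gave 1 higher and 4 lower, with a median of -0.68. This division was made after the values were seen. Dusp1, a nuclear phosphatase and itself an immediate early gene, had 8634.9 in the busulphan preparation and 2840.2 in the control (3.51-fold). Dusp6, which acts on ERK, had 8420.6 with busulphan and 1937.4 in the control (5.02-fold), and Dusp8, which acts on JNK and p38, had 292.41 with busulphan and 57.8 in the control (5.85-fold). Dusp11, which acts on RNA, was also higher (3.20-fold).

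Dusp13, an atypical phosphatase known from testis and skeletal muscle, had the largest difference of all members. It had 132.47 in the busulphan preparation and 7517.3 in the control, a ratio of -5.62 (49.1-fold), with the probe on chromosome 14 at 22554193 to 22554252 (mm9). Dusp22 had 97.1 with busulphan and 1604.1 in the control (14.3-fold lower). Dusp19 had 134.99 with busulphan and 1247.4 in the control, and was also lower on another probe (-3.12), while its probe nearest the 3′ end, not well above background in the control, gave a bound of 0.30 in the other direction. Dusp18 had 43.3 with busulphan and 143.33 in the control (2.87-fold lower). All of these are atypical members. Dusp4, a nuclear MAP kinase phosphatase, had 111.62 with busulphan and 2750.4 in the control on its brightest probe (21.3-fold), but its other probe, closer to the 3′ end, had 201.59 with busulphan and 161.92 in the control, a ratio of 0.52. The lower atypical members moved in the same direction as the spermatid markers, and the part of germ cells in them was not tested. The 9 Dusp genes within 2-fold, Dusp2, Dusp3, Dusp7, Dusp9, Dusp10, Dusp14, Dusp15, Dusp16 and Dusp23, lay between -0.68 (Dusp15) and 0.88 (Dusp14). A second, dimmer probe of Dusp16 gave -2.26, and that of Dusp9 gave -0.71, against 0.81 on the probe used.

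Among the name-only matches, Mycbp, which binds Myc, was higher, at 276.59 in the busulphan preparation and 66.1 in the control (4.84-fold). The zinc finger gene Zfp369 had 183.56 with busulphan and 954.39 in the control (4.50-fold lower). Zfp367 had 546.59 with busulphan and 1606.4 in the control (2.54-fold lower), but its other, dimmer probe gave 0.12. Atf7ip, a chromatin cofactor, gave -0.99, and Mycbp2, a ubiquitin ligase, gave 0.27. Only 1 of these 5 was higher, and their median was -0.99.

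Several members gave different answers from different probes. In 24 member genes with more than 1 measured probe, the probe nearest the 3′ end gave the higher ratio in 16 (66.7%), against 68.4% of 2298 such genes on the array. The ratio from that probe and from the one farthest upstream differed by at least 2-fold in favour of the 3′ one in 45.8% of members and 30.9% of all such genes, with medians of 0.71 and 0.34. Probes gave opposite signs, with at least 1 past 2-fold, in 7 members (29.2%) and in 17.2% of all such genes. The widest gaps were in Dusp4 (4.94), Cebpg (4.43), Atf1 (3.56), Atf2 (2.98) and Cebpa (2.91). Klf5 (-1.50) and Zfp367 (-1.46) ran the other way. RNA quality and transcript isoforms, which could bear on these gaps, were not tested.

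**Figure D4:**
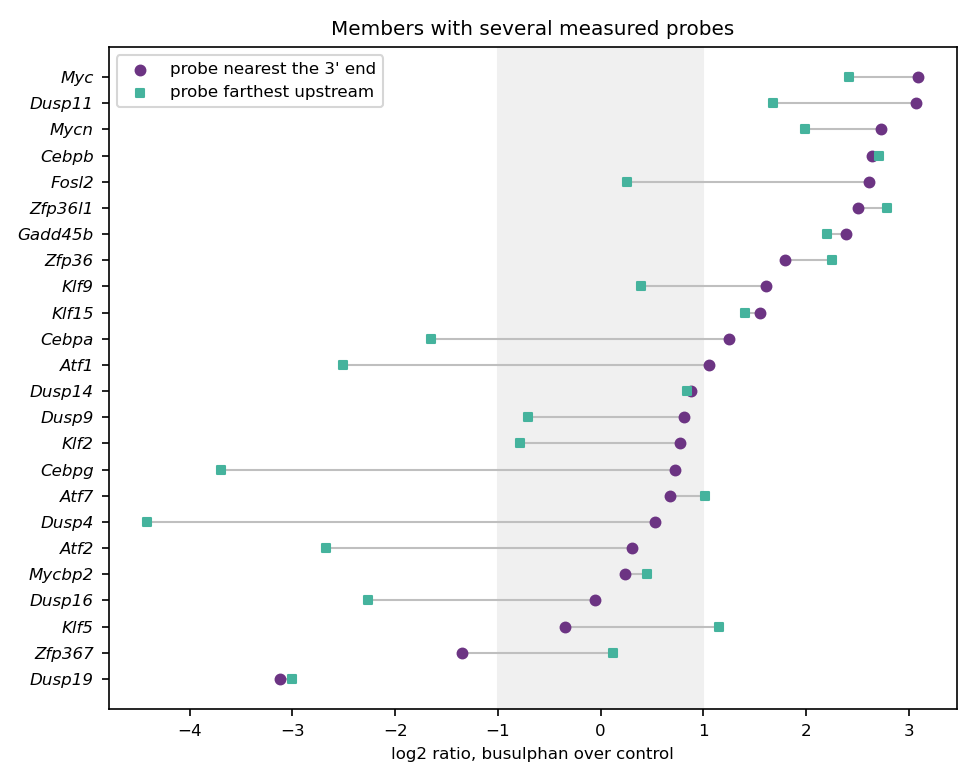
Log2 ratios, busulphan over control (x axis), of 24 member genes with several measured probes, with a circle for the probe nearest the 3′ end, a square for the one farthest upstream and a grey band within 2-fold. For Dusp4 the circle lies at 0.52 and the square at -4.41.

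The other genes of the same pathways gave a context for the members. Their counts stand beside 31.3% of all genes higher and 29.5% lower. Of 32 other immediate early genes compared, 25 were higher and 1 was lower, with a median of 2.58 (1.70 with spike-in scaling), a higher median than that of the members. The chemokine Ccl2 had 8243.5 in the busulphan preparation and 373.37 in the control (25.5-fold). Arc, best known as a neuronal immediate early gene, was the exception, with 1207.7 with busulphan and 33416 in the control (23.9-fold lower). Per1 gave -0.32.

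The upstream path was more evenly divided. Of 33 genes from Ras through the MAP kinases to SRF and CREB, 14 were higher and 9 were lower. The shares of all genes were 31.3% and 29.5%. The median of the 33 genes, 0.42, took the other sign under spike-in scaling (-0.47). The JNK kinase genes differed on their brightest probes. Map2k7 had 20.9 with busulphan and 1148.5 in the control (47.5-fold lower), but its probe nearest the 3′ end gave -0.81. In contrast, Map2k4 (3.05) and their substrate Mapk9 (3.13) were higher. Crem, the cyclic AMP factor with testis forms that switch on spermatid genes, was 17.4-fold lower on its brightest probe and also stands among the spermatid markers. The probe of Crem nearest the 3′ end gave -1.75, and the median over its probes was -0.69, inside 2-fold.

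The stress pathways depended on the scaling. For all genes the shares were 31.3% higher and 29.5% lower. Of 17 integrated stress and unfolded protein response genes, 10 were higher and 2 were lower, with a median of 1.08. With spike-in scaling this became 7 higher and 5 lower, with a median of 0.19. Psat1, an enzyme of serine synthesis and an Atf4 target, was 8.33-fold higher and the cystine carrier Slc7a11 was at least 9.97-fold higher, while Eif2s1 (-1.71), which encodes the phosphorylated subunit of eIF2, and the Atf4 target Ddit3 (-1.23) were lower. Atf4 targets thus lay on both sides. Of 15 heat shock and metal response genes, 8 were higher and 2 were lower, with a median of 1.02, and spike-in scaling gave 6 higher and 5 lower, and a median of 0.13. Hspd1 (2.43) and Hspa1b (2.32) were higher, and Hsf2 (-3.38) and Dnajb1 (-1.73, or -0.90 with loess) were lower. Of 21 other basic leucine zipper genes, 11 were higher and 5 were lower, with a median of 1.36. Spike-in scaling gave 9 higher and 5 lower, and a median of 0.48. Creb3 was 7.33-fold higher. Creb5 was 11.0-fold higher on its brightest probe, but its probe nearest the 3′ end gave 0.01. Creb3l4, known in mouse from spermatids, was 40.0-fold lower, at 1276 with busulphan and 58951 in the control.

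**Figure D5:**
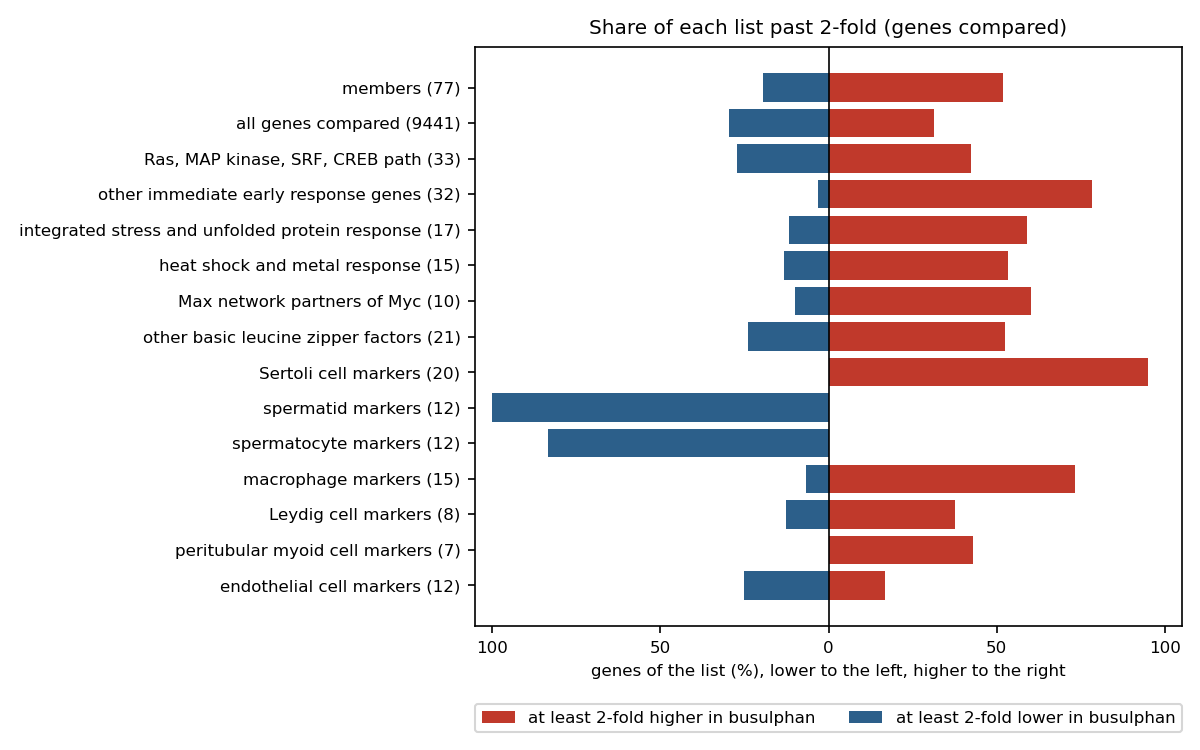
Share of the compared genes of each pathway and marker list (%, number in brackets) that were at least 2-fold higher (red, right) or lower (blue, left) with busulphan. Among the members 51.9% were higher and 19.5% lower, among all genes 31.3% and 29.5%, and all 12 spermatid markers were lower.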

How the data were processed

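Gene expression was measured in 1 busulphan and 1 control preparation. Per the file headers, the authors scanned the intensity of each spot with Agilent Feature Extraction 11.5.1.1, which subtracted background and gave dim spots a surrogate value. The deposited log2 table matched log2 of these signals minus a constant for each array, and served as an alternative. Here signals were scaled to each array's 75th percentile and put on the log2 scale, with 4 outlier probes left out. A probe dim or saturated on one array gave a bound. The brightest probe represented a gene. RefSeq (GRCm38.p6) named 13330 probes, 101 of the 112 member probes among them, and 1878 kept the file's name. Probe coordinates are those of the files (mm9), which do not say exon or UTR. A full stop ending the symbol rule was read as punctuation. Named genes were all members, and the 2 highest and 2 lowest ratios of each pathway list. Other genes, named as exceptions, were chosen after their values were seen. Some items are not reported here. Members, lists and motifs were chosen with earlier results of these data known. Alternatives were background correction (normexp, offset 50), other scalings, filters, thresholds and probe rules. Python 3.11.15 with pandas 2.3.3, numpy 2.4.6 and matplotlib 3.10.9, and R 4.3.3 with limma 3.58.1, were used, and the scripts were tested on simulated data.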

Additional observations from a re-analysis of the deposited data

How the results depend on the processing

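No paired analysis was possible because each group has 1 array, and for the same reason no array could be left out. At 2-fold, 30 to 43 members were higher over the alternatives, against 40 as reported, with 48 at a 1.5-fold threshold and 29 at 4-fold. The member median of 1.25 was 1.05 with no scaling, 0.99 with normexp, 0.37 with spike-in scaling, 1.46 without the name-only matches and 1.52 with the probe nearest the 3′ end, an alternative chosen after seeing the data. Spike-in scaling gave 23 lower members, against 15. With the 3′ probe Atf1 (1.06), Atf2 (0.30), Cebpg (0.73), Dusp19 (0.30, a bound) and Dusp4 (0.52) took the other sign, Atf1 did so under quantile normalization (1.27), where another probe was brightest, and Cebpa did so with the median over its probes (-0.20). With normexp 38 members were higher and 11 lower, and 6 moved inside 2-fold (Egr3, Nr4a3, Klf1 at -0.44, Dusp18 at -0.80, Cebpa at 0.76 and Junb at 0.99). With spike-in scaling 10 moved inside 2-fold, among them Atf4 (0.63), Nr4a2 (0.64) and Dusp1 (0.93).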

Other observations

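Members that were higher came from shorter genes. The median gene span was 6491 bases for the 40 higher members, 15257 for the 15 lower and 9668 for the 22 within 2-fold. The 8865 compared genes with a known span had medians of 23619, 22491 and 19048 bases in the same order. Across the 77 members Spearman's rho between ratio and span was -0.31, and across 8865 genes it was 0.01. Genes are not independent replicates, and the points share the same 2 arrays.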
